A study of Mus musculus with 9 samples.

Results

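The Rab GTPases of macrophage lines grown from 3 origins are described here, at the level of their mRNA. The members were the rows of the deposited TPM table whose gene symbol is Rab followed by a number and at most 1 letter and 1 further digit, so that exchange factors, effectors and Rab-like genes were left out. The rule took 59 of the 24411 listed genes. Of these, 42 reached 1 TPM in at least 3 of the 9 libraries, the filter that 11753 genes passed, and these 42 were tested.

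Rab proteins are small GTPases of the Ras superfamily that give membranes their identity. Guanine nucleotide exchange factors (GEFs) load a Rab with GTP on its membrane, the GTP-bound Rab recruits effectors such as tethers and motor adaptors, and GTPase-activating proteins (GAPs) switch it off, after which it returns to the cytosol. In macrophages, Rab proteins direct the uptake of particles, the maturation of the phagosome into a phagolysosome, the recycling of receptors, and the delivery of cytokines and lysosomal content to the cell surface.

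The study compared 3 YS lines, 3 FL lines and 3 BM lines, with 1 RNA-seq library per line. The cells came from C57BL/6 mice, without any transgene or deletion named in the labels: E9.5 yolk sac for YS lines, E14.5 fetal liver for FL lines, and adult bone marrow for BM lines. All lines were kept in medium with recombinant human M-CSF and received no further treatment. Each line was the bulk culture of a separate dish or well, expanded from colonies that grew out over weeks of passaging, and the starting cells of an origin were pooled from several mice. The lines of a group may therefore share animals, and a p-value measures the spread between these cultures only.

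Values are TPM (a measure of transcript abundance that corrects for transcript length and scales each library to the same sum), so levels of different genes can be compared, while the depth of the libraries is unknown. Differences are given as log2(TPM + 1), a scale that understates changes of weakly expressed genes, with the standard error (SE) and the Benjamini-Hochberg adjusted p of limma. A gene was called at a false discovery rate under 0.1 with a change of more than 2-fold, and a second count used the false discovery rate alone. Macrophage markers checked the label: Csf1r, which encodes the M-CSF receptor, ranged from 1086 to 2441 TPM over the 9 libraries. The summed TPM of 10 macrophage markers ranged from 6482 to 31405. These markers were not all even between the groups. Fcgr1 was called higher in YS and FL lines than in BM lines (4.65 and 4.02). Lyz2 was called lower in YS lines than in BM lines (-1.60) and than in FL lines. Mertk was called higher in FL lines than in BM and YS lines. The other macrophage markers were not called. BM lines also held osteoclast markers, whose sum was 196 to 1415 TPM against 58.9 to 124 TPM in YS and FL lines, led by Ctsk (cathepsin K) with 333, 90.2 and 1270.2 TPM in the BM lines and at most 3.24 TPM elsewhere. The list did not move as 1. Of 4 tested osteoclast markers, all 4 were lower at the false discovery rate in FL than in BM lines, and 3 in YS lines. Dcstamp was instead called higher in YS lines than in BM lines (1.79) and than in FL lines (4.04). The other marker sums reached up to 94.0 TPM for endothelial, 25.6 for neutrophil and granulocyte precursor, 20.6 for hepatocyte, 5.55 for mast cell and 1.17 for fibroblast markers. Some of these markers also differed between the groups. Endothelial Kdr and Vwf were called between YS and BM lines, and Cdh5 and Kdr were called higher in FL than in BM lines. S100a8 was called in all 3 comparisons, highest in FL and lowest in YS lines. Hdc of mast cells was called higher in YS than in BM lines. BM line 2 stood apart, with 375 summed TPM of erythroid markers against at most 14.9 in the other lines. It also held a median of 14.1% of the YS line 2 level for 45 genes, none of them a Rab gene. These 45 were picked as under 0.5 TPM in the other BM lines and at least 20 TPM in YS line 2. The other BM lines were thus low by choice, and no other lines were examined this way. The part of the erythroid transcripts and of these 45 genes in the differences below was not tested. Without BM line 2, 3 Rab genes rather than 2 were called between YS and BM lines, with Rab23 added (1.03, adjusted p = 0.077), and 1 rather than 0 between FL and BM lines, which was Rab29 (1.07, adjusted p = 0.021).

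No 75-base window, the length of a read in this study, was shared between transcripts of any pair of the 42 tested Rab genes in the GENCODE M21 annotation. Reads of Rab paralogs could thus be told apart in principle. Transcripts of other genes held more than 10% of the windows for 2 members, Rab43 (74.2%, mostly the annotated gene Gm45140) and Rab4b (52.5%, mostly Gm21983), so the TPM of these 2 are uncertain.

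Rab mRNAs were abundant and their sum was highest in the FL lines. The 59 genes summed to 3867 ± 48.9 TPM in the YS lines, 5091 ± 464 TPM in the FL lines and 4011 ± 72 TPM in the BM lines (mean ± SD, n = 3), between 0.381% and 0.557% of each library. The 3 FL lines held 4647, 5573 and 5053 TPM, each above the highest BM line (4084 TPM) and the highest YS line (3897 TPM). The ratio of the means was 1.27 for FL over BM lines, 1.32 for FL over YS lines and 0.964 for YS over BM lines. The median of the tested Rab genes was 56.6 TPM, beside 27.6 TPM for all tested genes. FL lines had the highest mean for 25 of the 42 tested members, YS lines for 9 and BM lines for 8. This count was not made for all tested genes. The difference in log2(TPM + 1) was above 0 for FL minus BM lines in 32 of the 42 members and 6940 of the 11753 tested genes. For YS minus FL lines it was above 0 in 11 of the 42 and 6124 of the 11753. Some marker sums were also highest in the FL lines. Macrophage markers summed to 9622 ± 2838 TPM in the YS lines, 22820 ± 8795 TPM in the FL lines and 15838 ± 713 TPM in the BM lines. Neutrophil and granulocyte precursor markers, of which 1 of 7 was tested (S100a8), summed to 1.63, 20.2 and 4.14 TPM. Endothelial and hepatocyte sums were highest in the FL lines too. Osteoclast (96.0, 64.0 and 691 TPM), erythroid and fibroblast sums were instead highest in the BM lines, and mast cell sums in the YS lines. The members of the macrophage list differed in direction, as given above. The part of the marker sums in the Rab totals was not tested. These sums and counts are descriptions without a test. In bulk samples, fewer cells that express a gene and less RNA per cell cannot be told apart.

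**Figure D1:**
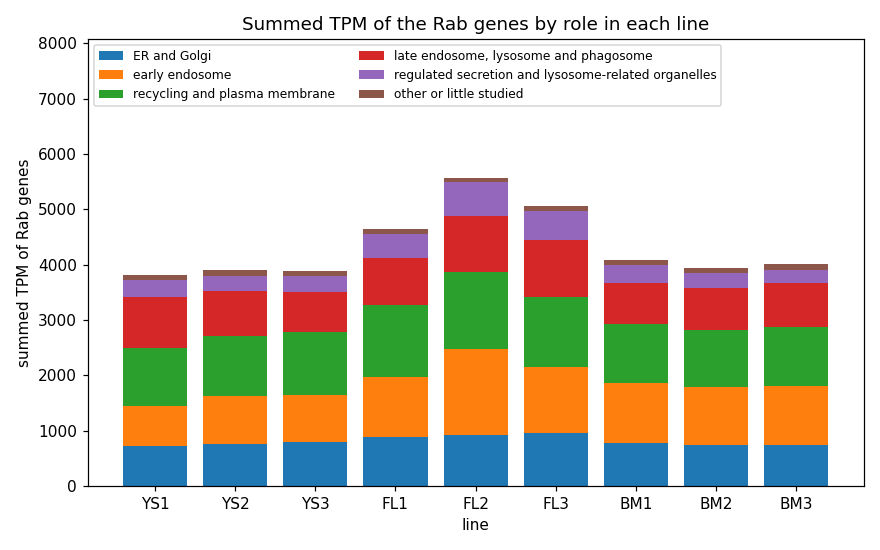
Summed TPM of the 59 Rab genes in each of the 9 lines, stacked by the role of the members (y axis, TPM; x axis, line). The 3 FL lines reached 4647 to 5573 TPM and the 6 YS and BM lines 3810 to 4084 TPM.

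As a ratio of group means, the excess of FL lines was largest for the role of regulated secretion and lysosome-related organelles (1.91 over BM and 1.84 over YS lines), which summed to 525 ± 81.1 TPM in the FL lines, 285 ± 27.3 TPM in the YS lines and 274 ± 34.6 TPM in the BM lines. Rab32 alone held most of the FL sum, with means of 411 TPM in FL, 154 TPM in YS and 207 TPM in BM lines. Of the other tested members, Rab29 and Rab27a had higher means in YS than in FL lines (62.4 against 49.6 and 17.4 against 13.9 TPM). Rab3d and Rab3a had slightly higher means in FL than in YS lines. The early endosomal members summed to 1275 ± 247 TPM in the FL lines, 826 ± 79.9 TPM in the YS lines and 1065 ± 16.7 TPM in the BM lines, and the 3 YS lines lay below all lines of both other groups. Most of the gap between YS and BM lines lay in Rab31, with means of 122 and 299 TPM. Rab5c, the most abundant of this role, had means of 429 and 440 TPM. YS and BM lines overlapped for Rab5c and Rab21. The members of the endoplasmic reticulum (ER) and Golgi were even between YS lines (752 ± 35.1 TPM) and BM lines (753 ± 25.8 TPM).

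The 5 most abundant members by mean were Rab7, Rab5c, Rab1, Rab32 and Rab14, which together made up 39.0% to 50.0% of the Rab TPM of a library. Rab7 drives the fusion of late endosomes and phagosomes with lysosomes, and it had the highest TPM of the family in 8 of 9 libraries. Rab5c, a GTPase of early endosome fusion, came second in those 8 and first in FL line 2. The place behind them went to Rab1 in the 3 YS lines, to Rab31 in the 3 BM lines, and to Rab1 or Rab32 in the FL lines.

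**Figure D2:**
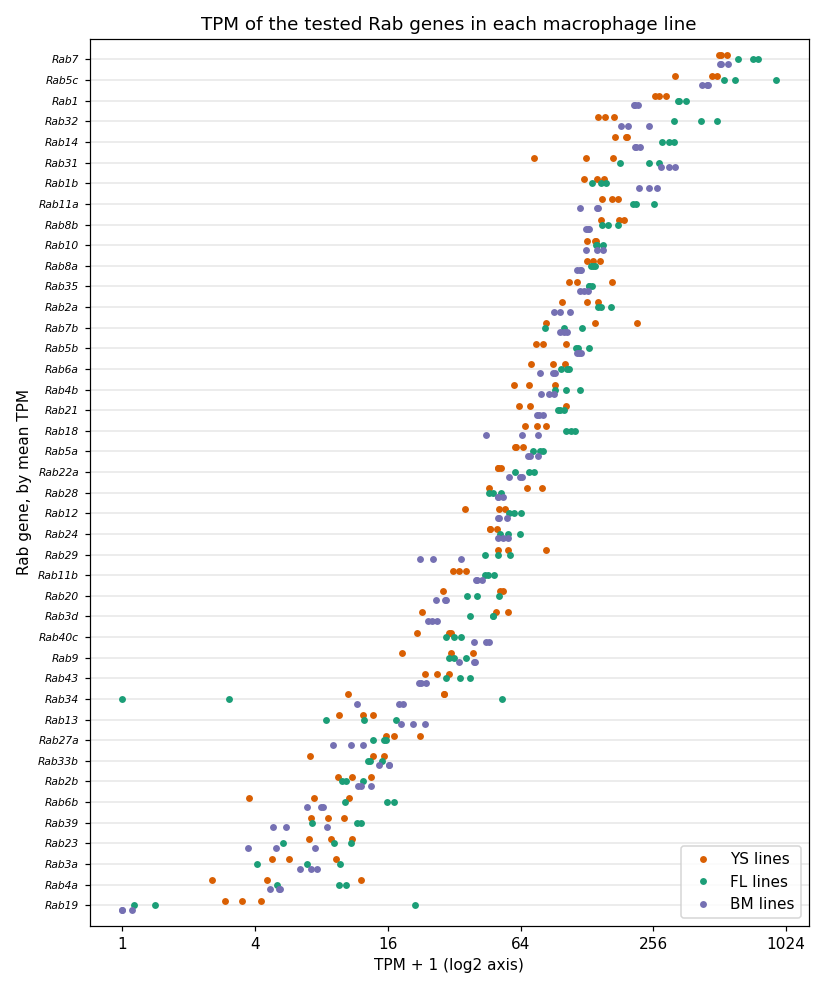
TPM + 1 of the 42 tested Rab genes on a log2 axis, ordered by mean TPM, with 1 point per line (YS, FL and BM lines in 3 colours, n = 3 each). Levels ran from Rab7, at 506 to 764 TPM, down to Rab19, at 0.00 to 20.3 TPM, and Rab7 and Rab5c had the highest group means in all 3 groups.

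Between YS and BM lines, 2 Rab genes were called. Rab29 was higher and Rab31 was lower in the YS lines. The 2 are 4.76% of the 42 tested members, beside 12.8% of all tested genes called in this comparison. At the false discovery rate alone, 6 members were higher and 7 lower (31.0% in all), while 23.5% of all tested genes were higher, 14.4% lower and 37.9% either. The median difference was -0.02 for the Rab genes and 0.11 for all tested genes. Scaling by the median of ratios moved the median of all genes to 0.00 and that of the Rab genes to -0.13, and it changed the split to 3 higher and 11 lower (4 and 11 after quantile normalization).

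Between FL and BM lines, 0 Rab genes were called by limma with the 2-fold threshold, beside 10.3% of all tested genes. At the false discovery rate alone, 16 members differed (38.1%), 13 higher and 3 lower in the FL lines. The split was 8 and 3 after scaling by the median of ratios and 9 and 3 after quantile normalization. Of all tested genes, 17% were higher, 10.6% lower and 27.6% either. The median difference was 0.27 for the Rab genes and 0.09 for all genes, and it was 0.17 and 0.00 after scaling by the median of ratios.

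Between YS and FL lines, 1 Rab gene was called, Rab32, which was lower in the YS lines (2.38% of the tested members, beside 3.79% of all tested genes). At the false discovery rate alone, 10 members were lower in the YS lines and 0 were higher (23.8% in all). Of all tested genes, 6.2% were higher, 6.56% lower and 12.8% either. The median difference was -0.24 for the Rab genes and 0.02 for all genes. The 3 comparisons share lines, so their values are not independent of each other.

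In all, 23 of the 42 tested members passed the false discovery rate in at least 1 comparison (54.8%, beside 49.1% of all tested genes), with 39 differences. Of these, 18 differences of 13 members kept passing it in all of 18 other fits, 9 that left out 1 line each and 9 that changed the pseudocount, the filter, the scaling or the model. These were Rab1, Rab1b, Rab5b, Rab27a, Rab29, Rab31 and Rab40c between YS and BM lines, Rab1, Rab1b, Rab2a, Rab11a, Rab14, Rab18, Rab29, Rab32 and Rab43 between FL and BM lines, and Rab14 and Rab32 between YS and FL lines. The same refits were made for the Rab genes and not for all genes, so no background stands beside this count. In the other direction, 14 of the 19 members that passed in no comparison did so in at least 1 of the other fits, and Rab2b, Rab3a, Rab10, Rab12 and Rab35 in none. The counts depended on single lines. Between YS and BM lines, 7 members passed without BM line 1 and 8 without BM line 3. Between FL and BM lines, 9 passed without BM line 2 and 10 without BM line 1, BM line 3 or FL line 3. Between YS and FL lines, 3 passed without FL line 3, BM line 1 or BM line 2, and 4 without FL line 2 or BM line 3.

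**Figure D3:**
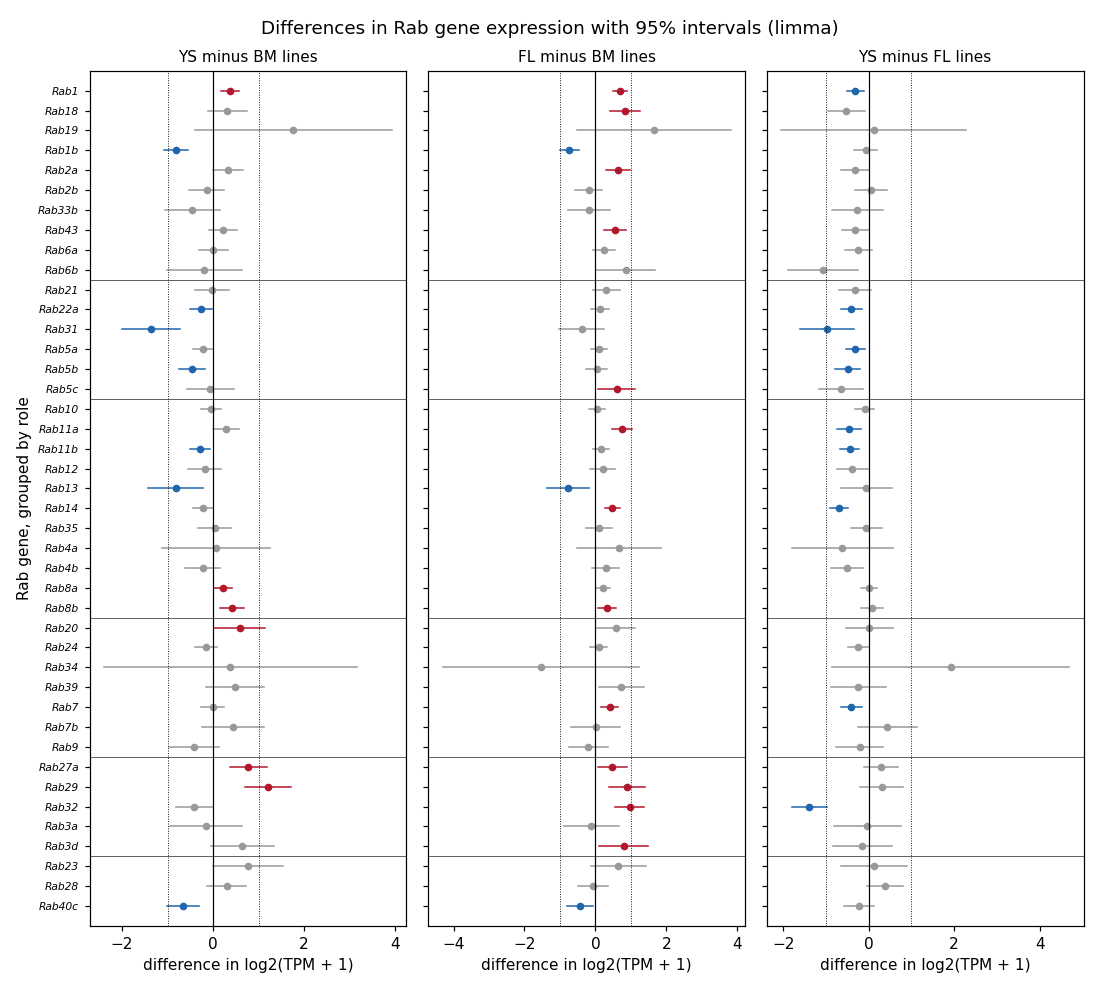
Differences in log2(TPM + 1) of the 42 tested Rab genes in the 3 comparisons (x axes), grouped by role (y axis), with 95% intervals of limma over 3 lines a group. Red points are higher and blue points lower at a false discovery rate under 0.1, grey points did not pass, and dotted lines mark 2-fold. In the YS against FL panel all 10 coloured points are blue, and intervals of Rab34 and Rab19 are the widest.

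Upstream sequences are shown for the 3 called members and for the pair Rab1 and Rab1b, which differed in opposite directions between the BM lines and both other groups. Each is the 250 bases before the RefSeq start (build GRCm38.p6, given 5′ to 3′ on the strand of the gene), matched by symbol, with Rab1 under its current name Rab1a. Capitals mark the GC box GGGCGG and the CCAAT box CCAAT on either strand. The windows lie at chr11:20201162-20201411 on the plus strand for Rab1, chr19:5106997-5107246 on the minus strand for Rab1b, chr1:131867027-131867276 on the plus strand for Rab29, chr17:65772753-65773002 on the minus strand for Rab31 and chr10:10558208-10558457 on the minus strand for Rab32.
Rab1: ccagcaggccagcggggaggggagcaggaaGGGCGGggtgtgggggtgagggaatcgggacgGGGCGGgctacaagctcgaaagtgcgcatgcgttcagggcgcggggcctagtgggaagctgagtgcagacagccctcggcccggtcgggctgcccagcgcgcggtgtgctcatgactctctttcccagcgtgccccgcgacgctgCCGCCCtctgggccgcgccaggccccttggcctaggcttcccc
Rab1b: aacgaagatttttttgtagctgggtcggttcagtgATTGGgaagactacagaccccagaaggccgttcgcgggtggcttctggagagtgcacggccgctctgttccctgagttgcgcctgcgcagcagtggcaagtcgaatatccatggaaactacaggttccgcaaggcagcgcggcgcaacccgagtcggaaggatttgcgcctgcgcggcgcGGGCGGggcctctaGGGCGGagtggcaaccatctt
Rab29: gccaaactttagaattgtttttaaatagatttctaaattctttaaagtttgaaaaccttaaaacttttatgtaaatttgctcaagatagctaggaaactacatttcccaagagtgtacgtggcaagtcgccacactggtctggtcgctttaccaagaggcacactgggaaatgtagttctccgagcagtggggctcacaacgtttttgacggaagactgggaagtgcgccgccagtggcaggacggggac
Rab31: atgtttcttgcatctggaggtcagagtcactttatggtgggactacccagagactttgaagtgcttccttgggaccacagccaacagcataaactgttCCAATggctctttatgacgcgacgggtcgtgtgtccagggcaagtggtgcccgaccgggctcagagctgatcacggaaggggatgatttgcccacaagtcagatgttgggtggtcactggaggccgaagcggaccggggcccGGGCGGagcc
Rab32: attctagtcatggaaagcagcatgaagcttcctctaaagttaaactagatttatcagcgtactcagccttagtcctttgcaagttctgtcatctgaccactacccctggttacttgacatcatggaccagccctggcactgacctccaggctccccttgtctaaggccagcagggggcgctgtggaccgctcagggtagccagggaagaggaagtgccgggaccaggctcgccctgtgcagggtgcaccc
The Rab1 window holds 3 GC boxes and no CCAAT box, the Rab1b window 2 GC boxes and 1 CCAAT box, and the Rab31 window 1 of each. The windows of Rab29 and Rab32 hold neither box, and that of Rab32 holds 2 matches of GAGGAA. Of the 42 tested members, 38 had a RefSeq window, and a GC box was in 78.9% of them, beside 63.6% of 9379 tested genes with a window and 32.7% of all 32851 windows. A CCAAT box was in 55.3% of the members, 41% of the tested genes and 33.8% of all windows. The core GAGGAA of PU.1, the macrophage factor, was in 21.1%, 26.1% and 23.3%, the E-box CACGTG in 13.2%, 10.2% and 6.02%, the ETS core CCGGAAG in 7.89%, 16.6% and 6.91%, and the AP-1 motif TGANTCA in 2.63%, 5.46% and 6.75%. A gene with several starts counted as holding a motif if any of its windows did. These are matches of letters, not sites.

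Among the members of the ER and Golgi, 10 of 12 were tested, and the paralogs Rab1 and Rab1b differed from the BM lines in opposite directions. Rab1 and Rab1b both act in transport from the ER to the Golgi. Rab1 was at 269, 261 and 290.4 TPM in the YS lines, 334, 330.1 and 359 TPM in the FL lines and 209, 216 and 211 TPM in the BM lines. None of these groups overlapped. The difference was 0.36 (SE 0.09, adjusted p = 0.017) for YS minus BM lines, 0.68 (SE 0.09, adjusted p = 0.0016) for FL minus BM lines and -0.32 (SE 0.09, adjusted p = 0.069) for YS minus FL lines. The last was lost in 8 of the 18 other fits, with an adjusted p of up to 0.230.

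Rab1b was at 151, 141 and 123 TPM in the YS lines, 134, 147 and 154 TPM in the FL lines and 245, 219 and 264 TPM in the BM lines. The YS and FL lines overlapped with each other, and all 6 lay below the BM lines. The difference was -0.81 (SE 0.12, adjusted p = 0.0030) for YS minus BM lines and -0.73 (SE 0.12, adjusted p = 0.0037) for FL minus BM lines. Rab1 exceeded Rab1b by a ratio of 2.00 ± 0.31 in the YS lines and 2.35 ± 0.12 in the FL lines, while the ratio was 0.880 ± 0.096 in the BM lines (mean ± SD, n = 3), without overlap of the BM lines with either group. Rab1b was the only tested member on chromosome 19. The 426 tested genes of that chromosome had a median difference of -0.53 for YS minus BM and -0.80 for FL minus BM lines, while the medians of the other chromosomes ranged from -0.30 to 0.48 and from -0.13 to 0.44. The part of this in the Rab1b difference was not tested.

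The other members of this role that passed did so between FL and BM lines, and all were higher in the FL lines. Rab18, which acts on the ER and on lipid droplets, was at 102, 112 and 108 TPM in the FL lines and 75.9, 63.9 and 43.5 TPM in the BM lines (0.84, SE 0.19, adjusted p = 0.017). Rab2a, which acts between the Golgi and the ER, was at 148, 163 and 143 TPM in the FL lines and 106, 95.1 and 89.4 TPM in the BM lines (0.64, SE 0.15, adjusted p = 0.017). For both genes, YS line 1 lay within the range of the BM lines and YS line 3 above it. Rab43, a Golgi Rab whose windows are mostly shared with another annotated gene, was at 28.4, 36.7 and 32.85 TPM in the FL lines and 21.3, 21.7 and 22.7 TPM in the BM lines (0.55, SE 0.14, adjusted p = 0.024). Rab6a, the main Rab of retrograde Golgi transport, ranged from 70.5 to 105 TPM over all lines and passed in none of the comparisons, and neither did Rab2b, Rab6b, Rab19 and Rab33b. Rab6b was called as lower in YS than in FL lines after scaling by the median of ratios (-1.08, adjusted p = 0.098) and without YS line 1 (-1.40, adjusted p = 0.060), beside an adjusted p of 0.113 in the fit of all lines.

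**Figure D4:**
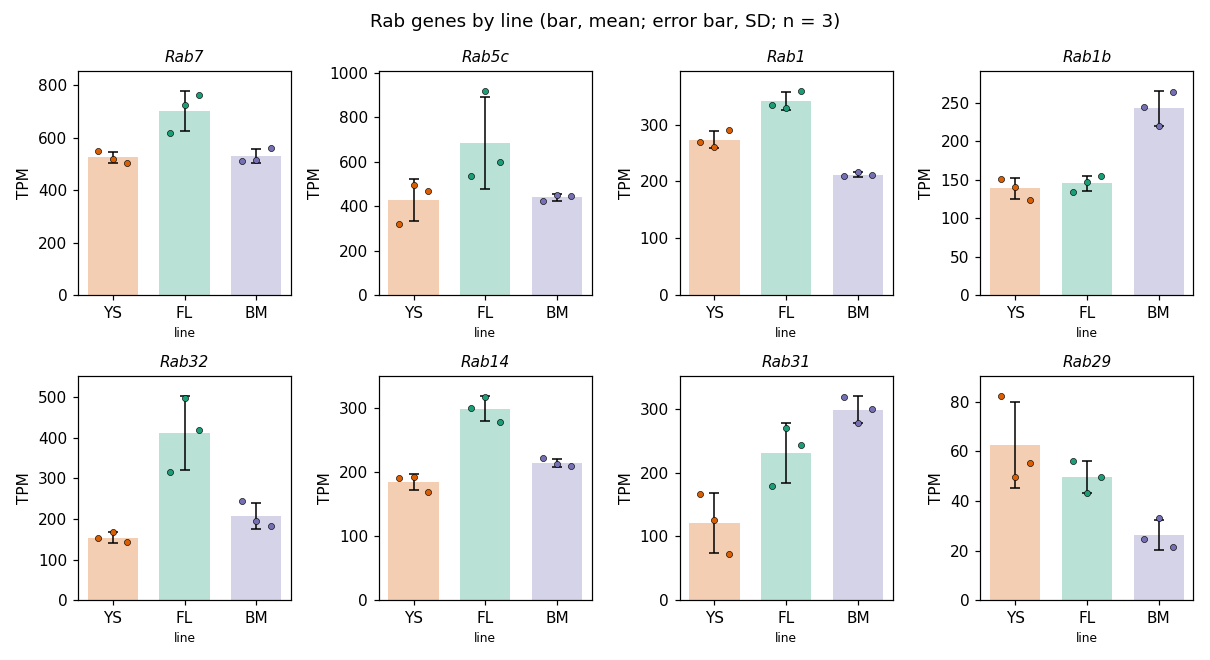
TPM of 8 Rab genes in YS, FL and BM lines (points, single lines; bars, mean; error bars, SD; n = 3). Rab1 was lowest and Rab1b highest in the BM lines, Rab32 and Rab14 were highest in the FL lines, Rab31 was lowest in the YS lines, and Rab29 was lowest in the BM lines.

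All 6 members of the early endosome were tested, and they were lower in the YS lines wherever they passed in a comparison with YS lines. Rab31 moves cargo between the trans-Golgi network and endosomes. It was at 167, 125 and 72.8 TPM in the YS lines, 179.6, 270.5 and 243 TPM in the FL lines and 319, 278 and 301 TPM in the BM lines. The YS lines lay below all others and were spread over a 2.29-fold range among themselves. The difference was -1.37 (SE 0.28, adjusted p = 0.0098) for YS minus BM lines, and it stayed past 2-fold in all 18 other fits, from -1.63 to -1.04. For YS minus FL lines it was -0.98 (SE 0.28, adjusted p = 0.077), which 8 of the other fits lost, with an adjusted p of up to 0.212. FL and BM lines did not overlap but did not pass the test (-0.39, 95% interval -1.02 to 0.25, adjusted p = 0.37).

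The 3 paralogs of Rab5, the GTPase that fuses early endosomes, did not share 1 pattern. Rab5b was at 74.5, 79.9 and 101 TPM in the YS lines, 113, 129 and 116 TPM in the FL lines and 119, 115 and 117 TPM in the BM lines. The YS lines lay below all others (YS minus BM -0.46, SE 0.13, adjusted p = 0.028; YS minus FL -0.49, SE 0.13, adjusted p = 0.061). Rab5a was lower in YS than in FL lines (-0.31, SE 0.10, adjusted p = 0.090), at 59.3 to 64.7 against 71.6 to 80.0 TPM. Rab5c, which held 70.1% to 77.1% of the Rab5 TPM on average in the groups, was at 321, 497 and 469.6 TPM in the YS lines, 534, 919 and 601 TPM in the FL lines and 423, 452 and 446 TPM in the BM lines. It was higher in FL than in BM lines (0.60, SE 0.23, adjusted p = 0.099), a difference lost in 12 of the 18 other fits. Without FL line 2, the highest, the difference was 0.36 and the adjusted p was 0.242. Rab22a, which acts on early endosomes and phagosomes, was at 49.4, 49.4 and 51.4 TPM in the YS lines, below every FL and BM line (55.6 to 72.7 TPM). Its difference was -0.27 (SE 0.11, adjusted p = 0.094) against BM lines and -0.41 (SE 0.11, adjusted p = 0.067) against FL lines. In the comparison of YS with FL lines, the differences of Rab5a, Rab5b and Rab22a were lost in 11, 7 and 6 of the 18 other fits, among them those without FL line 3 and without each BM line, with an adjusted p of up to 0.244. That of Rab22a against BM lines was lost in 9, with an adjusted p of up to 0.256. Rab21, which carries integrins through early endosomes, ranged from 62.2 to 102 TPM and did not pass.

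Of the 14 members of recycling and the plasma membrane, 11 were tested, and Rab14 and Rab11a gave the clearest differences. Rab14 acts between the Golgi and early endosomes and on maturing phagosomes. It was at 192, 193 and 169.9 TPM in the YS lines, 301, 318 and 279 TPM in the FL lines and 222, 212 and 210.3 TPM in the BM lines, so that the 3 groups did not overlap. The difference was 0.48 (SE 0.09, adjusted p = 0.0099) for FL minus BM lines and -0.69 (SE 0.09, adjusted p = 0.013) for YS minus FL lines. The lower level of YS than of BM lines did not pass (-0.22, 95% interval -0.43 to -0.0023, adjusted p = 0.12).

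Rab11a and Rab11b control the recycling endosome. Rab11a was at 149, 166 and 175 TPM in the YS lines, 213.5, 256 and 206 TPM in the FL lines and 141, 142 and 118 TPM in the BM lines. It was higher in FL than in BM lines (0.75, SE 0.13, adjusted p = 0.0048) and lower in YS than in FL lines (-0.46, SE 0.13, adjusted p = 0.070, lost in 7 of the 18 other fits with an adjusted p of up to 0.193). Rab11b was at 30.5, 32.8 and 35.1 TPM in the YS lines, 44.3, 47.5 and 43.3 TPM in the FL lines and 39.65, 39.3 and 41.55 TPM in the BM lines. It was lower in the YS lines than in the BM lines (-0.29, SE 0.10, adjusted p = 0.060) and than in the FL lines (-0.45, SE 0.10, adjusted p = 0.046). The first was lost in 4 of the 18 other fits, among them those without BM line 1, 2 or 3 (adjusted p = 0.144, 0.126 and 0.186). The second was lost in 3, among them those without FL line 2 or 3 (adjusted p = 0.130 and 0.121). Rab11a made up 83.3% ± 0.267 of the Rab11 TPM in the YS lines and 83.3% ± 0.952 in the FL lines, against 76.8% ± 2.46 in the BM lines, with all BM lines below all others.

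Rab8a and Rab8b, which direct exocytic carriers to the cell surface, were both lowest in the BM lines. Rab8b was at 146, 178 and 188 TPM in the YS lines, 175, 159 and 149 TPM in the FL lines and 126, 129.5 and 128 TPM in the BM lines (YS minus BM 0.41, SE 0.12, adjusted p = 0.033; FL minus BM 0.32, SE 0.12, adjusted p = 0.085). The first was lost without BM line 1 (adjusted p = 0.105) and after scaling by the median of ratios (adjusted p = 0.103), and the second in 11 of the 18 other fits. Rab8a was higher in YS than in BM lines by 0.22 (SE 0.09, adjusted p = 0.096), a difference lost in 14 of the other fits, and one that was 0.10 after scaling by the median of ratios. Rab13, known from epithelial junctions, was at 12.7, 8.61 and 11.4 TPM in the YS lines and 7.43, 16.4 and 11.5 TPM in the FL lines, below the 19.8, 17.4 and 22.5 TPM of the BM lines. The difference was -0.82 (SE 0.26, adjusted p = 0.047) for YS minus BM lines, lost without YS line 2, BM line 1 or BM line 3 (adjusted p = 0.122, 0.122 and 0.150), and -0.77 (SE 0.26, adjusted p = 0.074) for FL minus BM lines, lost in 7 of the 18 other fits.

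Rab10, which carries receptors to the plasma membrane, was the most even of the abundant members of this role, at 126 to 150.1 TPM in all 9 lines. Its 95% intervals were -0.26 to 0.18 for YS minus BM, -0.17 to 0.27 for FL minus BM and -0.31 to 0.13 for YS minus FL lines. Rab35, Rab12, Rab4a and Rab4b passed in none of the comparisons.

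Of the 10 members of the late endosome, lysosome and phagosome, 7 were tested. Rab7 was at 550.1, 519 and 506 TPM in the YS lines, 617, 725 and 764 TPM in the FL lines and 512, 516 and 559.5 TPM in the BM lines. FL lines lay above all others, and YS and BM lines overlapped. The difference was 0.40 (SE 0.11, adjusted p = 0.032) for FL minus BM lines and -0.41 (SE 0.11, adjusted p = 0.064) for YS minus FL lines. The first was lost without FL line 3, BM line 1 or BM line 2 (adjusted p = 0.107, 0.117 and 0.105) and after scaling by the median of ratios (adjusted p = 0.108), and the second in 7 of the 18 other fits. YS minus BM lines gave -0.01, with a 95% interval from -0.26 to 0.23. Rab20, a Rab of phagosome maturation, was at 52.2, 50.5 and 27.5 TPM in the YS lines, 39.5, 35.6 and 50.2 TPM in the FL lines and 27.95, 28.3 and 25.55 TPM in the BM lines. Its difference of 0.60 between YS and BM lines (SE 0.24, adjusted p = 0.095) was lost in 14 of the 18 other fits, and YS line 3 lay within the BM range. Rab9, Rab24, Rab34, Rab39 and Rab7b did not pass.

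Regulated secretion and lysosome-related organelles had 12 members, of which 5 were tested, and 4 of the 5 were higher in FL than in BM lines at the false discovery rate alone, beside 17% of all tested genes. For Rab27a and Rab3d, 2 of these 4, the difference was lost in 10 and 13 of the 18 other fits. Rab32 acts in the biogenesis of lysosome-related organelles and in the defence against intracellular bacteria. It was at 153, 168 and 142 TPM in the YS lines, 317, 497 and 419.7 TPM in the FL lines and 244.5, 196 and 182 TPM in the BM lines. The order FL over BM over YS held without overlap. The difference was 0.97 (SE 0.18, adjusted p = 0.0071) for FL minus BM lines, just under 2-fold, and -1.39 (SE 0.18, adjusted p = 0.010) for YS minus FL lines, from -1.56 to -1.24 in the 18 other fits. YS minus BM lines did not pass (-0.41, 95% interval -0.82 to -0.01, adjusted p = 0.12). Rab38, its closest relative, was at most at 0.42 TPM in any library.

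Rab29 recruits the kinase LRRK2 to the Golgi and to stressed lysosomes. It was at 82.1, 49.7 and 55.3 TPM in the YS lines, 56.0, 43.1 and 49.6 TPM in the FL lines and 24.6, 33.2 and 21.35 TPM in the BM lines. BM lines lay below all others, and YS and FL lines overlapped. The difference was 1.20 (SE 0.22, adjusted p = 0.0071) for YS minus BM lines and 0.90 (SE 0.22, adjusted p = 0.023) for FL minus BM lines. Without YS line 1 the first was 0.99, under the 2-fold threshold, and without BM line 2 the second was 1.07, past it. Lrrk2 itself, named after its values were seen, was lower in the YS lines (7.26, 12.0 and 9.71 TPM) and FL lines (10.3, 10.1 and 9.42 TPM) than in the BM lines (20.7, 21.4 and 17.65 TPM), with differences of -0.99 and -0.93 (adjusted p = 0.0063 and 0.0083), just under 2-fold.

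Rab27a docks secretory lysosomes and exosome-bearing endosomes at the plasma membrane. It was at 21.5, 14.7 and 16.0 TPM in the YS lines, 14.3, 14.7 and 12.7 TPM in the FL lines and 11.3, 8.06 and 9.88 TPM in the BM lines. YS minus BM lines gave 0.77 (SE 0.18, adjusted p = 0.016), and FL minus BM lines 0.48 (SE 0.18, adjusted p = 0.094). Rab27b was listed at 0 in all YS and FL lines and at 0.39, 0.31 and 0.53 TPM in the BM lines. Rab3d, a Rab of secretory granules, was at 47.2, 46.8 and 36.6 TPM in the FL lines and 25.9, 23.4 and 24.3 TPM in the BM lines (0.80, SE 0.30, adjusted p = 0.0999), while YS lines ranged from 21.9 to 55.0 TPM. Without YS line 2, the lowest, it was called between YS and BM lines (1.05, adjusted p = 0.0051). Rab3a did not pass.

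Of the remaining members, Rab40c, a Rab with a SOCS box that joins a ubiquitin ligase, was lower in the YS lines (29.4, 29.8 and 20.7 TPM) and in the FL lines (31.1, 33.4 and 28.35 TPM) than in the BM lines (43.7, 38.2 and 44.8 TPM). The differences were -0.66 (SE 0.16, adjusted p = 0.017) and -0.44 (SE 0.16, adjusted p = 0.086), of which the second was lost in 8 of the 18 other fits. Rab23, a regulator of Hedgehog signalling, did not pass with all lines, but it did without BM line 2, as given above, and without FL line 2 (YS minus BM 0.77, adjusted p = 0.083; FL minus BM 0.95, adjusted p = 0.090). Rab28, a ciliary Rab, passed only without YS line 1 (YS minus BM 0.52, adjusted p = 0.013; YS minus FL 0.60, adjusted p = 0.035).

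Some members varied widely between the lines of a group, and those described here were picked after their values were seen. The median SD over lines of the tested Rab genes, in log2(TPM + 1), was 0.27 in the YS lines, 0.15 in the FL lines and 0.091 in the BM lines, beside 0.28, 0.18 and 0.11 for all tested genes. Rab34, which acts on phagosome and lysosome positioning and in ciliogenesis, was at 27.6, 27.6 and 9.52 TPM in the YS lines, 10.6, 16.95 and 17.8 TPM in the BM lines, and 0.00, 51.6 and 2.05 TPM in the FL lines, so that FL line 2 held the highest level of all lines and FL line 1 was listed at 0. Without FL line 2, it was lower in FL than in BM lines (adjusted p = 0.013) and in FL than in YS lines (adjusted p = 0.050). Rab19 was at 20.3 TPM in FL line 3, at 1.93 to 3.24 TPM in the YS lines and at or under 0.41 TPM in the other lines. It did not pass in any comparison, but it was higher in YS than in BM lines with a pseudocount of 0.1 (adjusted p = 0.056), with only those groups in the fit (1.76, adjusted p = 0.0085) and without FL line 3 (1.76, adjusted p = 0.0056), and without that line it was also higher in YS than in FL lines (1.48, adjusted p = 0.067). Rab4a, a Rab of fast recycling, ran from 11.1 TPM in YS line 1 to 1.54 TPM in YS line 3, a 7.23-fold range. Leaving out 1 line at a time, Rab4a passed as lower in YS than in FL lines in 1 of 9 fits. Rab7b, which acts from late endosomes to the trans-Golgi network, ran from 215 TPM in YS line 1 over 138 TPM in YS line 2 to 82.7 TPM in YS line 3, while the BM lines held 95.8 to 102 TPM. It passed as higher in YS than in BM lines in 1 of these 9 fits, and than in FL lines in 1. YS line 2 lay between YS lines 1 and 3 for 26 of the 42 tested members. At the other end, 19 of the 42 varied by less than 2-fold over all 9 lines. Neither count was made for all tested genes, so no background stands beside them.

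**Figure D5:**
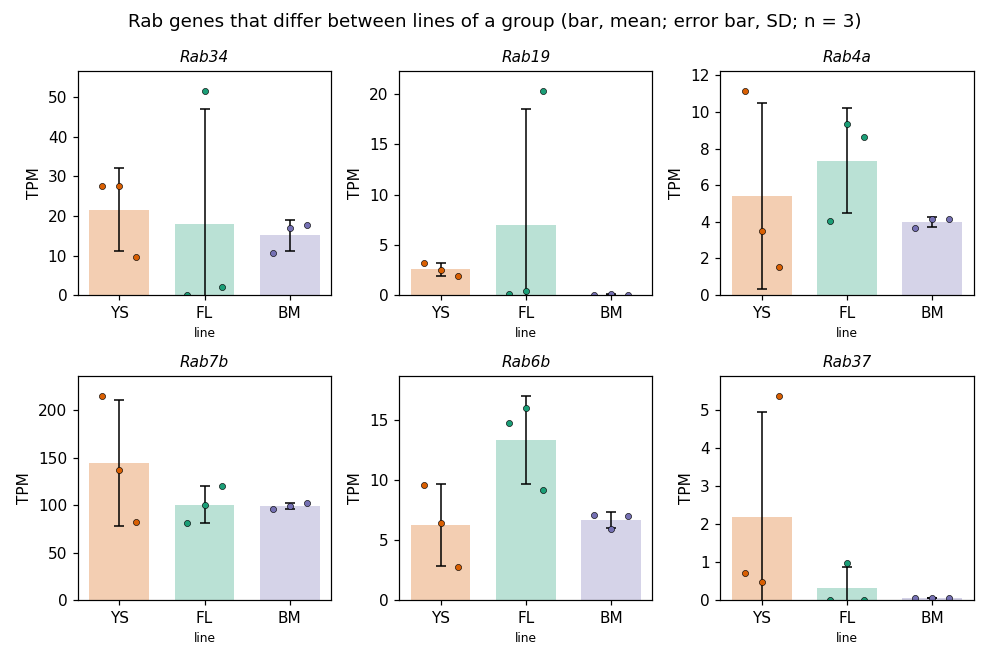
TPM of 6 Rab genes that varied between the lines of a group (points, single lines; bars, mean; error bars, SD cut at 0; n = 3). Rab34 and Rab19 were each high in 1 FL line (51.6 and 20.3 TPM), and Rab4a and Rab7b ran from high in YS line 1 to low in YS line 3.

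The 17 members under the filter were Rab3b, Rab3c, Rab9b, Rab15, Rab17, Rab25, Rab26, Rab27b, Rab30, Rab33a, Rab36, Rab37, Rab38, Rab39b, Rab40b, Rab42 and Rab44, many of them known from epithelia, neurons or secretory cells. Of these, 13 stayed under 1 TPM in every library, and Rab9b, Rab26 and Rab36 were listed at 0 in all 9. The exceptions were all in the YS lines: Rab37 reached 5.36 TPM in YS line 3, Rab17 2.81 TPM in YS line 1, Rab15 1.86 TPM in YS line 3 and Rab44 1.46 TPM in YS line 2. Rab44 and Rab17 were listed at 0 in all FL and BM lines.

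Most paralog groups were carried by 1 member in all 3 origins. Rab2a held 89.5% to 93.9% of the Rab2 TPM, Rab6a 88.4% to 92.9% of Rab6, Rab3d 80.1% to 87.8% of Rab3, Rab4b 92.5% to 95.5% of Rab4, and Rab7 79.0% to 87.5% of the sum of Rab7 and Rab7b (means of the groups). Rab8a and Rab8b were at near levels in all 3 groups, with 44.5% ± 4.86, 45.8% ± 2.58 and 47.8% ± 0.782 of the Rab8 TPM for Rab8a in YS, FL and BM lines (mean ± SD, n = 3). These shares are descriptions without a test.

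The genes that load, unload and read Rab proteins were called as follows in the same fit. Of 146 tested regulators and effectors, 18 were called between YS and BM lines, with 8 up and 10 down in the YS lines. In the same way, 15 were called between FL and BM lines (8 higher, 7 lower) and 3 between YS and FL lines (1 higher, 2 lower). After quantile normalization, the split was 6 and 15, 5 and 9, and 1 and 2, and after scaling by the median of ratios 6 and 13, 6 and 9, and 0 and 2. Called shares were 12.3%, 10.3% and 2.05% of the 146, beside the 12.8%, 10.3% and 3.79% of all tested genes given above.

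Among 53 tested GEFs, 7, 5 and 1 were called in the 3 comparisons. Dennd2d, a DENN domain protein with exchange activity on Rab9, was at 14.1, 11.6 and 25.6 TPM in the YS lines, 6.90, 5.55 and 8.74 TPM in the FL lines and 1.5, 4.19 and 2.02 TPM in the BM lines. It was called in all 3 comparisons (2.34, 1.23 and 1.11 in the order above, adjusted p = 0.0034, 0.041 and 0.097). The call between FL and BM lines was lost without FL line 3, BM line 1 or BM line 3 (adjusted p = 0.120, 0.143 and 0.133), and that between YS and FL lines in 14 of 18 other fits. Dennd2a was higher in the YS lines (2.20, adjusted p = 0.015) and FL lines (1.51, adjusted p = 0.066) than in the BM lines, where it was at 0.03, 1.22 and 0.20 TPM. The second call was lost in 7 of 17 other fits. Dennd5b was lower in the YS lines (-1.44, adjusted p = 0.060) and FL lines (-1.69, adjusted p = 0.044) than in the BM lines, and both calls were lost in 5 of 17 other fits each, with an adjusted p of up to 0.141. Rin1, an exchange factor of Rab5, was at 0.69 to 1.41 TPM in YS and FL lines and 3.55 to 4.54 TPM in the BM lines (-1.11 and -1.31, adjusted p = 0.0073 and 0.0037).

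Among 36 tested GAPs, 4, 4 and 0 were called. Tbc1d16, which acts on Rab4, was at 41.4, 11.7 and 11 TPM in the YS lines, 43.8, 33.7 and 21.1 TPM in the FL lines and 0.71, 3.72 and 1.39 TPM in the BM lines (2.80 and 3.60 against BM lines, adjusted p = 0.0089 and 0.0033). Its relative Tbc1d9 was higher in the YS lines (2.05, adjusted p = 0.083, lost in 8 of 18 other fits) and FL lines (3.30, adjusted p = 0.020) than in the BM lines. BM line 2 held more Tbc1d9, Tbc1d16, Dennd2a, Dennd2d and Mical1 than the other BM lines. Sgsm1 was at 5.21 to 8.68 TPM in the BM lines and at most 1.47 TPM in the YS lines (-2.47, adjusted p = 0.0047), and its call against FL lines (-1.28, adjusted p = 0.058) was lost in 7 of 18 other fits. Usp6nl, a GAP of Rab5, was lower in FL than in BM lines (-1.46, adjusted p = 0.019).

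Among 46 tested effectors, 6, 6 and 2 were called. Unc13d (Munc13-4), the partner of Rab27a in granule priming, was at 0.11, 0.04 and 0.31 TPM in the YS lines, 3.84, 26.9 and 5.59 TPM in the FL lines and 18.4, 14.0 and 13.9 TPM in the BM lines. It was lower in the YS lines than in the BM lines (-3.83, adjusted p = 0.0032) and than in the FL lines (-3.07, adjusted p = 0.028, and 0.126 with only those groups in the fit), while Rab27a was higher in YS than in BM lines. Mical1, an actin-oxidising effector of several Rab proteins, was higher in the YS lines (2.55, adjusted p = 0.0048) and FL lines (1.62, adjusted p = 0.028) than in the BM lines, the latter not without BM line 1 (adjusted p = 0.102). Bicd1, a dynein adaptor of Rab6, was at 5.62 to 6.59 TPM in the BM lines and 0.00 to 2.12 TPM in the others (-2.03 and -2.25, adjusted p = 0.020 and 0.016). Rilpl1, which binds Rab proteins phosphorylated by LRRK2, was at 4.57 to 10.3 TPM in the BM lines and 0.47 to 1.56 TPM in the others (-2.01 and -2.12, adjusted p = 0.0039 and 0.0029). Plin3, a lipid droplet protein that binds Rab9, was at 73.6, 41.95 and 24.1 TPM in the YS lines and 114, 116 and 164 TPM in the FL lines. It was lower in the YS lines (-1.60, adjusted p = 0.045, lost without FL line 2 or FL line 3 at adjusted p = 0.109 and 0.138, and with only those groups in the fit). Against the BM lines, at 84.0 to 110.2 TPM, it was also lower in the YS lines (-1.18, adjusted p = 0.036, lost without BM line 1 or BM line 3 at adjusted p = 0.115 and 0.102).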

How the data were processed

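RNA-seq of 9 macrophage lines, 3 per origin, was analysed from the table of TPM that the authors deposited, with 1 column per line (columns not used, 0). Per the labels, Trim Galore 0.6.6, STAR 2.7.9a and RSEM 1.3.3 were used; their roles, the genome build and the annotation are not given in the sources used here. TPM keeps no read counts, so depth is unknown and no count test was run. Genes that reached 1 TPM in 3 or more of the 9 libraries were fitted as log2(TPM + 1) with limma 3.58.1 (R 4.3.3; eBayes with trend, all 9 libraries, two-sided) and p-values were adjusted by Benjamini-Hochberg over all tested genes. Calls needed an adjusted p under 0.1 together with a difference of over 2-fold. The code was tested on simulated data.

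Lines were grouped by GEO's labels. Named genes were every member past the false discovery rate, the 5 most abundant, their paralogs, members under the filter, and up to 3 called genes with the largest change per regulator list and comparison. The result of 1 gene that this rule names is not reported here. The members and lists were chosen with earlier results of these data known. Promoter windows came from RefSeq (GRCm38.p6), matched for 48 of 59 members. Shared 75-base windows were counted in GENCODE M21 transcripts. Alternatives were a pseudocount of 0.1 or 4, other filters, quantile and median-of-ratios scaling, no trend, only the groups compared, a false discovery rate under 0.05, no fold threshold, a replicate block, and leaving out each line.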

Additional observations from a re-analysis of the deposited data

How the results depend on the processing

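Depth could not be weighed, since TPM keeps none, and 3 lines per group limit the precision. With a pseudocount of 4, 11 regulators were called between YS and BM lines and 7 between FL and BM lines. After median-of-ratios scaling, 2 Rab genes (Rab6b and Rab32) were called between YS and FL lines, and the ratio of summed Rab TPM was 0.891 for YS over BM and 0.749 for YS over FL lines. With only the groups compared in the fit, YS against FL lines gave 0 regulators called by limma and 2 Rab genes at the false discovery rate alone. At a false discovery rate under 0.05, without a fold threshold, FL against BM lines gave 10 Rab genes and YS against FL lines one of 3. Without the fold threshold, 13, 16 and 10 Rab genes and 58, 55 and 25 regulators passed in YS against BM, FL against BM and YS against FL lines. The regulators were 39.7%, 37.7% and 17.1% of the 146 tested, and the Rab genes 31.0%, 38.1% and 23.8% of the 42. Beside these, 37.9%, 27.6% and 12.8% of all tested genes passed. The cause of the shifts between settings was not tested, other than that fewer samples or a changed threshold enter by construction.

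Leaving out 1 line at a time, Rab genes called ranged from 1 to 3, 0 to 2 and 1 to 4 in those comparisons, Rab genes at the false discovery rate alone from 7 to 16, 9 to 21 and 3 to 14, and regulators called from 13 to 21, 9 to 15 and 1 to 5. The ratio of summed Rab TPM ranged from 0.956 to 0.973 (YS over BM), 1.21 to 1.32 (FL over BM) and 0.728 to 0.797 (YS over FL). Among the 42 tested Rab genes and the 14 regulators refitted by name, no difference past the false discovery rate changed its direction under the alternatives run.

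The line numbers 1 to 3 recur in each origin. The labels do not say what the number stands for. Same-numbered lines had correlations of their deviations from -0.118 to 0.0878, and 2 of 9 lines correlated best with a line of their own number. With 3 lines per origin, these correlations cannot exclude that same-numbered lines share a batch or culture date. With the number as a replicate block, 2 Rab genes were called by limma between YS and FL lines, Rab32 and also Rab6b (-1.07, adjusted p = 0.097).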
